A study of Zea mays subsp. mays with 2 samples.

Results

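The loci described here were on in the endosperm of the defective-kernel maize mutant dek35 and near silent in that of wild type. A locus was taken when it had at least 5 FPKM in dek35 and under 1 FPKM in wild type, where FPKM is a read level corrected for transcript length and library size. It also had to lie on chromosomes 1 to 10, span at least 500 bp, have coordinates listed in only 1 row, and have a mean of under 100 FPKM over the 2 libraries. Of 43446 rows in the tables, 30762 met the criteria on position, span and mean and are called eligible, and 375 met the rule, which is 1.22% of eligible loci. These 375 loci were selected on the FPKM of both libraries, so their levels are given as a description.

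One library came from kernels of genotype dek35 and the other from wild-type kernels, both made from endosperm at 18 days after pollination. Each genotype had 1 sample and 1 column of values, although the submitters' design text speaks of triplicates, and the sources used here do not say whether replicates were pooled. No difference below therefore has a replicate check or a p-value. The dek35 allele is not given in the labels, and the level of the dek35 gene itself was not analysed here.

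Endosperm is the storage tissue of the maize kernel, and in mid grain filling much of its mRNA encodes a small number of storage proteins, above all the zeins. Defective-kernel (dek) mutants form small kernels with poorly filled endosperm. The product of the dek35 gene is a pentatricopeptide repeat protein, one of a class that binds organelle RNA, and it serves the splicing of the mitochondrial transcript of nad4, a subunit of respiratory complex I. The tables give each locus by chromosome, start and end only. None of the 375 loci had the exact start and end of a gene of the RefSeq table used (assembly Zm-B73-REFERENCE-NAM-5.0), and neither did any of the 43287 rows on chromosomes 1 to 10, so the loci are named by position, their genes and functions are not given, and no cell type is named. Coordinates are those of the files, whose build the sources used here do not name, with starts counted from 1.

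Most of the loci were only moderately expressed in dek35. Their levels in dek35 ran from 5.003 to 122 FPKM with a median of 7.37 FPKM, against 15.8 FPKM for all 11184 eligible loci that reached 5 FPKM in dek35. In dek35, 271 of the 375 lay between 5 and 10 FPKM, 79 between 10 and 20, 20 between 20 and 50, 4 between 50 and 100, and 1 above that. Loci near silent in wild type thus stood mostly at the low end of what was on in dek35. This held in the other direction too. The exchanged rule, under 1 FPKM in dek35 and at least 5 FPKM in wild type, took 70 loci. Their median in wild type was 8.90 FPKM, against 12.7 FPKM for all 8547 eligible loci on in wild type. In wild type the 375 loci ran up to 0.997 FPKM with a median of 0.569 FPKM, and 32 of them were listed at 0, that is, at 1e-05 FPKM or less. A value listed at 0 in a table without counts can be a failed estimate, so no fold is given for these 32. In RNA of a whole tissue, more cells that express a locus and more RNA of it per cell cannot be told apart.

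For the 343 loci above 0 in wild type, the ratio of dek35 to wild-type FPKM had a median of 14.2-fold, with quartiles of 8.64-fold and 25.1-fold. The ratio was at least 10-fold at 229 of these loci (66.8%) and at least 20-fold at 117 (34.1%). It was at least 50-fold at 32 (9.33%) and at least 100-fold at 14 (4.08%). The rule itself sets every ratio above 5-fold. The number of fragments behind these wild-type levels is unknown, so no error can be put on the ratios. Large ratios were not particular to this direction. Of the loci of the exchanged rule, 54 were above 0 in dek35. Their ratio of wild type to dek35 had a median of 22.9-fold. It was at least 10-fold at 44, 20-fold at 30, 50-fold at 9 and 100-fold at 3. The 32 loci listed at 0 in wild type had a median of 7.64 FPKM in dek35 and an upper quartile of 13.9 FPKM. The other 343 had 7.31 and 10.3 FPKM. The rule cut both groups off at 5 FPKM, so these medians are a description.

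**Figure D1:**
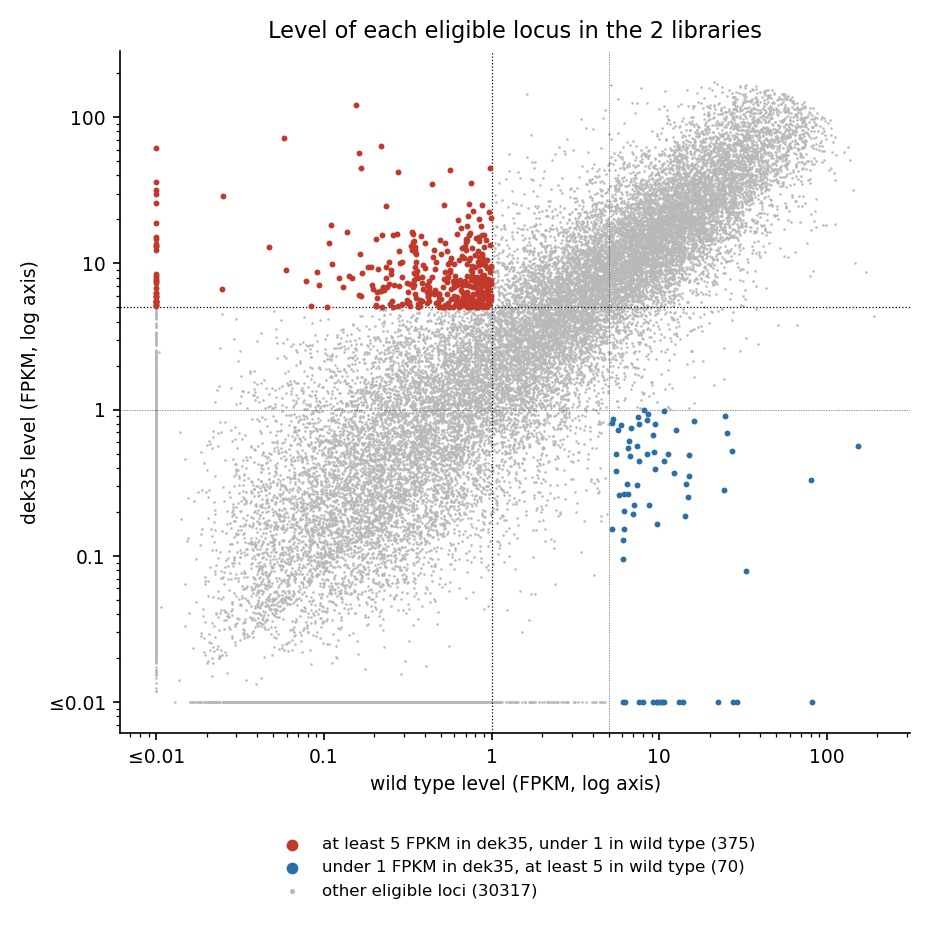
Level of each of the 30762 eligible loci in dek35 (vertical axis) and wild type (horizontal axis), in FPKM on log axes, with values of 0.01 FPKM or less drawn at 0.01. The 375 loci of the rule fill the upper left corner and crowd toward its 1 and 5 FPKM limits, and the 70 loci that met the rule with the libraries exchanged are at the lower right.

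The limits of the rule cut through a continuous cloud of loci. Just inside the wild-type limit were a locus on chromosome 10 (42886669 to 42891888), with 20.3 FPKM in dek35, against 0.997 FPKM in wild type, and one on chromosome 7 (147114030 to 147114763), with 7.20 and 0.995. Just outside it were chromosome 2, 185341447 to 185347936, with 6.73 FPKM in dek35, against 1.01 FPKM in wild type, and likewise chromosome 6, 107929548 to 107930701, with 6.53 and 1.01. Just inside the dek35 limit were chromosome 3, 121640604 to 121642965, with 5.003 FPKM in dek35, against 0.841 FPKM in wild type, and likewise chromosome 1, 106067568 to 106071501, with 5.01 and 0.590. The nearest loci outside it, chromosome 4, 147610166 to 147610974, and chromosome 6, 114615984 to 114620585, both had 4.99 FPKM in dek35, with 0.957 and 0.734 in wild type. Of the 375 loci, 111 had under 6 FPKM in dek35, and 43 had at least 0.9 FPKM in wild type. A further 164 eligible loci under 1 FPKM in wild type had 4 to 5 FPKM in dek35.

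With the libraries exchanged, 70 eligible loci (0.228%) had under 1 FPKM in dek35 and at least 5 FPKM in wild type. Of 15640 eligible loci under 1 FPKM in wild type, 2.40% reached 5 FPKM in dek35, whereas of 13170 under 1 FPKM in dek35, 0.532% reached 5 FPKM in wild type. Seen from the other side, 3.35% of the 11184 eligible loci on in dek35 were near silent in wild type, and 0.819% of the 8547 on in wild type were near silent in dek35. The 375 loci were part of a wider difference. Among 11636 eligible loci that reached 5 FPKM in either library, 39.3% stood 2-fold or more above wild type in dek35 and 3.79% 2-fold or more below it, on the scale of log2((dek35 + 1)/(wild type + 1)), and the shares past 4-fold were 9.99% and 1.12%. Their median log2 ratio was 0.77.

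How much larger the set was than its opposite depended on the scaling between the libraries. As deposited there were 375 loci against 70. When dek35 values were divided by 1.68, the median ratio of dek35 to wild type over rows above 0 in both libraries, the counts were 140 and 112. Scaling to equal upper quartiles gave 141 and 109, and scaling to equal totals without the 50 most abundant loci gave 144 and 106. Under these scalings 1 factor is applied to every dek35 value, so the first count can hardly grow and the second can hardly shrink.

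Of the 375 loci, 139 met the rule under all 3 scalings, which follows from their level in dek35. These had at least 8.45 FPKM in dek35, with a median of 12.8, and a median of 0.521 FPKM in wild type. Stricter limits of at least 10 FPKM in dek35 and under 0.5 FPKM in wild type left 51 loci. The same limits exchanged left 19. A locus within these stricter limits meets the rule under each of the 3 scalings, so all 51 had to be among the 139. The 10 most abundant wild-type loci of the whole tables held 1.77% of summed FPKM in dek35 and 38.3% in wild type. The part of this difference in composition in the levels of the 375 loci was not tested.

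**Figure D2:**
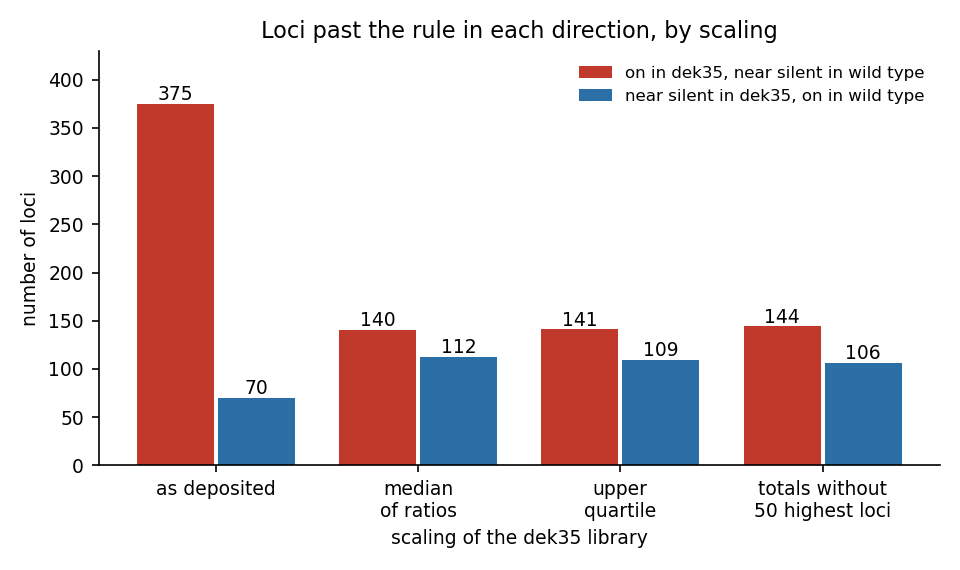
Number of eligible loci on in dek35 and near silent in wild type (red) and near silent in dek35 and on in wild type (blue), as deposited and under 3 scalings of the dek35 library. The counts are 375 and 70 as deposited and between 140 and 144 against 106 to 112 after scaling.

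The share of near-silent loci that were on in dek35 is given by their level in wild type as a description, since the rule used both values and a locus nearer 1 FPKM in wild type needs a smaller ratio to reach 5 FPKM. Among eligible loci with 0.5 to 1 FPKM in wild type, 208 of 2580 (8.06%) reached 5 FPKM in dek35. The share was 3.37% (85 of 2524) from 0.25 to 0.5 FPKM and 1.23% (41 of 3323) from 0.1 to 0.25 FPKM. Below 0.1 FPKM but above 0 it was 0.309% (9 of 2913). Loci listed at 0 in wild type did not continue this order, with 32 of 4300 (0.744%) on in dek35. Most near-silent loci, 15265 of 15640, stayed under 5 FPKM in dek35: the median dek35 level was 0.158 FPKM for loci listed at 0 in wild type and 1.21 FPKM for those from 0.5 to 1 FPKM.

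The same order appeared in the other direction at lower shares, from 1.01% (24 of 2384) of loci with 0.5 to 1 FPKM in dek35 to 0.0795% (2 of 2516) of those above 0 and under 0.1 FPKM. Of loci listed at 0 in dek35, 0.658% (16 of 2432) reached 5 FPKM in wild type. At this lowest level the directions were close, 0.744% on in dek35 and 0.658% on in wild type. With dek35 divided by 1.68, the shares for loci listed at 0 were 0.302% (13 of 4300) and 0.658% (16 of 2432). The order of the directions turned round there, but the factor allowed no other move. Listed zeros were not scaled, so the second share was fixed and the first could hardly rise. For 0.5 to 1 FPKM the shares were 2.75% and 1.91%.

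**Figure D3:**
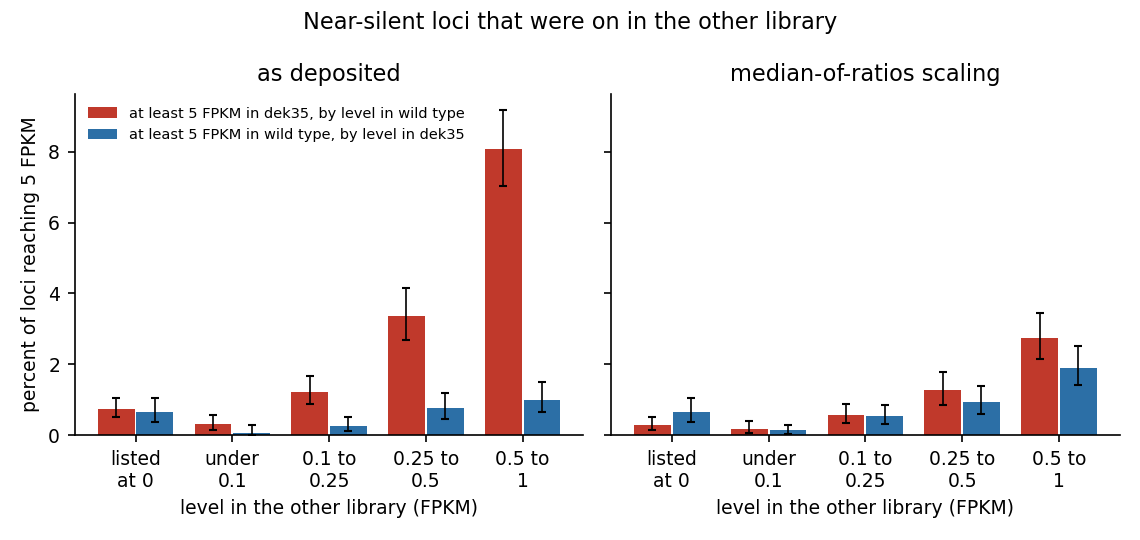
Percent of near-silent eligible loci that reached 5 FPKM in the other library, by their level in the library where they were near silent, as deposited (left) and with dek35 divided by the median ratio (right). Red bars are loci on in dek35 and blue bars loci on in wild type, and whiskers are exact 95% binomial intervals over loci, which are not independent replicates; the red bar at 0.5 to 1 FPKM stands at 8.06% on the left and 2.75% on the right.

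The most strongly expressed of the loci in dek35 was chromosome 2, 12345073 to 12348033, which spans 2961 bp. It had 122 FPKM in dek35, against 0.155 FPKM in wild type, a 785-fold ratio. Its nearest expressed neighbours, 71.5 kb before and 11.003 kb after it, had 38.8 and 13.8 FPKM in dek35, against 18.4 and 14.0 FPKM in wild type. The difference at this locus was thus far from that of either neighbour.

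The next was chromosome 10, 46063647 to 46066005, with 72.3 FPKM in dek35, against 0.0580 FPKM in wild type, a 1247-fold ratio and the largest among the 343 loci above 0 in wild type. The locus before it, 57.4 kb away, had 5.38 FPKM in dek35, against 5.45 FPKM in wild type. A 184-bp locus 116 kb after it had 25.5 FPKM in dek35 but a listed 0 in wild type. Chromosome 8, 167532926 to 167534041, followed with 63.6 FPKM in dek35, against 0.220 FPKM in wild type, and its neighbour 4.54 kb after it had 13.2 and 10.2 FPKM. The neighbour 92.3 kb before it had 1.20 FPKM in dek35, against 0.160 FPKM in wild type. Each of these loci thus had 1 neighbour that differed little between the libraries and 1 that was higher in dek35.

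Chromosome 3, 215283062 to 215283644, was the highest of the loci listed at 0 in wild type, with 61.3 FPKM in dek35. It is short, at 583 bp, and its neighbour 4.75 kb after it had 14.6 FPKM in dek35, against 14.0 FPKM in wild type, and the one before it 7.28 and 21.0 FPKM. Chromosome 2, 19268233 to 19269788, had 57.0 FPKM in dek35, against 0.161 FPKM in wild type, although both of its neighbours were lower in dek35. Those neighbours had 1.68 and 8.82 FPKM in dek35, against 7.75 and 18.3 FPKM in wild type. This locus went against its surroundings in direction.

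Chromosome 4, 232594159 to 232594795, had 45.0 FPKM in dek35, against 0.979 FPKM in wild type, so that it lay close to the wild-type limit in spite of its high level in dek35. Chromosome 5, 184090808 to 184092028, had 44.8 FPKM in dek35, against 0.166 FPKM in wild type. Chromosome 1, 78335269 to 78336824, had 43.6 FPKM in dek35, against 0.562 FPKM in wild type. These levels in dek35 lie within 2-fold of one another while those in wild type do not.

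Chromosome 1, 193552662 to 193555243, had 42.1 FPKM in dek35, against 0.275 FPKM in wild type. A locus only 0.905 kb before it had 3.56 FPKM in dek35, against 0.130 FPKM in wild type, so that neighbour also was near silent in wild type but missed the 5 FPKM limit. Chromosome 2, 230254990 to 230256292, had 36.2 FPKM in dek35 but a listed 0 in wild type, and the locus 143 bp after it had 17.6 FPKM in dek35, against 6.12 FPKM in wild type.

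Chromosomes 6, 7 and 9 had lower maxima. Their highest loci were chromosome 6, 118255931 to 118257833, with 13.7 FPKM in dek35, against 0.401 FPKM in wild type, then chromosome 7, 67724377 to 67725065, with 20.2 and 0.836, and last chromosome 9, 108228878 to 108230282, with 31.7 FPKM in dek35 but a listed 0 in wild type.

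The loci were spread over all 10 chromosomes in about the proportion of eligible loci. Chromosome 8 had the highest share, 38 of 2662 eligible loci (1.43%), and chromosome 9 the lowest, 21 of 2260 (0.929%), against 1.22% overall. Chromosome 1 held the most, 69 of 5129 (1.35%). Dividing each chromosome into 10 equal parts, from its start to the last eligible locus, gave shares between 0.922% in the sixth part and 1.41% in the last. In the outer 2 parts at each end 218 of 17056 eligible loci met the rule (1.28%), and in the inner 6 parts 157 of 13706 (1.15%). These shares of eligible loci are near the background of 1.22%. Shares of the loci under 1 FPKM in wild type varied more, around 2.40% for all of them. They ran from 1.80% on chromosome 9 to 2.88% on chromosome 8, and from 1.68% in the sixth part to 3.06% in the last. In the outer parts the share was 2.65% and in the inner parts 2.12%, a difference that was not tested.

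The loci mostly stood alone. Of the 375, 28 had another of them within 100 kb (7.47%), compared with 5.17% of the other 30387 eligible loci, and at 1000 kb the shares were 33.3% and 36.7%. The median distance to the nearest of the 375 was 1632 kb for the loci themselves and 1595 kb for the other eligible loci. The 28 formed 14 pairs and no larger run. The share falls with the size of the set: with dek35 divided by 1.68, 2 of 140 loci had another within 100 kb (1.43%), against 2.02% of the other eligible loci, and at a limit of 10 FPKM 0 of 104 did, against 1.49%.

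The tightest pair lay on chromosome 9, where 107670492 to 107671462 had 6.83 FPKM in dek35, against 0.422 FPKM in wild type, and 107671817 to 107672348, 354 bp further on, had 14.5 FPKM in dek35, against 0.710 FPKM in wild type. On chromosome 1, 282810216 to 282812059 had 9.06 FPKM in dek35, against 0.569 FPKM in wild type, and 282812717 to 282817190, 0.657 kb away, had 6.01 and 0.415. On chromosome 10, 138689229 to 138691895 had 19.9 FPKM in dek35, against 0.626 FPKM in wild type, and 138704120 to 138705089, 12.2 kb away, had 5.71 and 0.987. Whether the first and second pairs are parts of 1 gene each cannot be told from the tables.

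The loci were longer at the median than their opposite, a difference that was not tested. The 375 loci had a median span of 2306 bp, and the 70 loci of the exchanged rule 1256 bp. Eligible loci that stayed under 5 FPKM in dek35 and were under 1 FPKM in wild type had a median of 1978 bp, and those at 5 FPKM or more in both libraries 4285 bp. The loci on in dek35 alone were thus closer in span to other near-silent loci than to loci on in both. Among the 375, the 32 listed at 0 in wild type had a median span of 1142 bp, and the other 343 had 2455 bp. Listed zeros went with short span in general: all eligible loci listed at 0 in wild type had a median of 1631 bp, and those above 0 but under 1 FPKM 2131 bp.

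By span class, from 500 to 1000 bp there were 37 loci of the set and 29 of its opposite, so the directions were close to balanced. From 1000 to 2000 bp the numbers were 121 and 22, from 2000 to 5000 bp 143 and 16, from 5000 to 10000 bp 57 and 2, and above that 17 and 1. In the values as deposited, the excess toward dek35 was therefore carried by loci of 1000 bp or more. With dek35 divided by 1.68 the shortest class turned to the other direction, with 19 and 42. The factor can hardly raise the first count or lower the second in any class. The next 3 classes had 50 and 33, 50 and 29, and 18 and 6, and the longest 3 and 2. Of loci near silent in wild type, 1.14% were on in dek35 from 500 to 1000 bp and 2.60% from 1000 to 2000 bp. The share was 2.55% from 2000 to 5000 bp, 3.71% from 5000 to 10000 bp and 2.76% above that. It thus did not rise steadily with span. Of loci near silent in dek35, 0.991% were on in wild type from 500 to 1000 bp and 0.556% from 1000 to 2000 bp. That share was 0.350% from 2000 to 5000 bp, 0.166% from 5000 to 10000 bp and 0.199% above that.

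The 3 longest loci of the set lay below its median level in dek35. Chromosome 4, 226410844 to 226440146, spans 29303 bp and had 5.04 FPKM in dek35, against 0.635 FPKM in wild type. Chromosome 2, 77184457 to 77206142, spans 21686 bp and had 5.18 FPKM in dek35, against 0.662 FPKM in wild type. Chromosome 3, 52627810 to 52649170, spans 21361 bp and had 5.86 FPKM in dek35, against 0.415 FPKM in wild type. The 10 most abundant loci spanned 583 to 2961 bp.

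**Figure D4:**
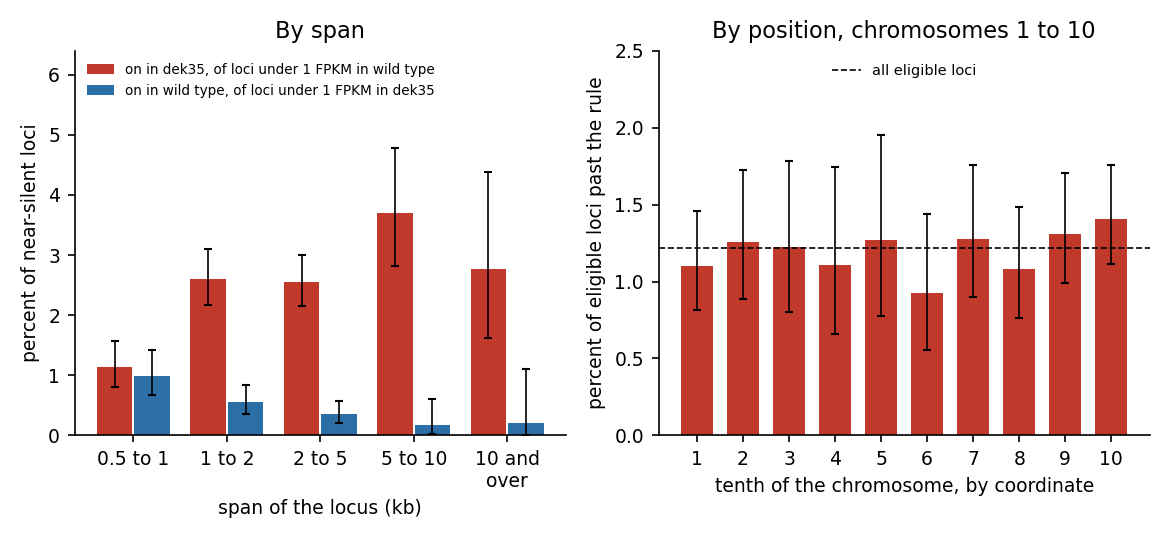
Left, percent of near-silent eligible loci that were on in dek35 (red) or in wild type (blue), by span in kb; right, percent of eligible loci that met the rule in each of 10 equal parts of the chromosomes, with a dashed line at the 1.22% of all eligible loci. Whiskers are exact 95% binomial intervals over loci, which are not independent replicates. All bars are for values as deposited. Red bars exceed blue ones in every class, least under 1 kb, and the bars on the right lie between 0.922% and 1.41%.

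The loci on either side, which the rule did not use, were compared next. For each of the 375 loci the nearest listed locus before and after it was taken that was not itself in the set and reached 1 FPKM in either library, which gave 750 neighbours at 727 distinct loci. Their median log2((dek35 + 1)/(wild type + 1)) was 0.84, against 0.67 for all 20430 loci over the same minimum. Of the neighbours, 41.6% stood 2-fold or more higher in dek35 and 3.73% 2-fold or more lower, compared with 34.2% and 5.51% of all loci. Neighbours had a median of 8.79 FPKM in dek35, against 4.64 FPKM in wild type, and all loci 7.90 and 4.68.

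The difference between neighbours and all loci was 0.18 (log2), and also 0.18 under each of the 3 scalings. One factor on every dek35 value shifts both medians by nearly the same amount. Its steadiness under scaling was thus largely set in advance and is no check of it. The difference was 0.053 when the 1 FPKM minimum was dropped. By level it was 0.21 for neighbours whose higher value was 1 to 5 FPKM and 0.18 for those from 5 to 20 FPKM. It was 0.020 from 20 to 100 FPKM and 0.014 above that, so it was carried by neighbours of low and moderate level. Near and far neighbours differed little: those with a gap of under 5 kb had a median of 0.88 (n = 148) and those over 100 kb away 0.81 (n = 240). Of neighbours under 5 kb away, 62.2% lay above the median of all loci, and of those over 100 kb away 57.5% did.

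Neighbours of the 70 loci of the exchanged rule had a median log2 ratio of 0.63 (n = 140), and 13.6% of them were at least 2-fold lower in dek35. Of the 375 loci, 74 (19.7%) had both neighbours at least 2-fold higher in dek35, 238 (63.5%) had 1 or both, and 137 (36.5%) had neither. Of 30364 other eligible loci with a neighbour on each side, 12.1% had both, 56.0% had 1 or both, and 44.0% had neither. The loci thus had neighbours higher in dek35 somewhat more often than other eligible loci, by a margin with no replicate check. Around the 10 most abundant loci, 6 of 20 neighbours stood 2-fold or more higher in dek35 and 2 stood 2-fold or more lower.

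**Figure D5:**
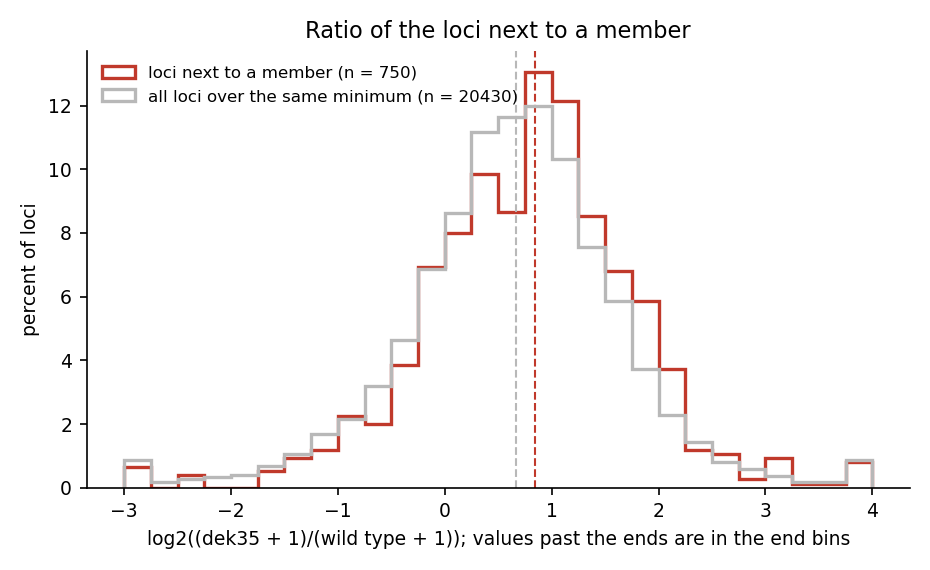
Distribution of log2((dek35 + 1)/(wild type + 1)) for the 750 neighbours of the loci (red) and for all 20430 loci over the same minimum (grey), in percent of loci per bin. Dashed lines are the medians, 0.84 for neighbours and 0.67 for all loci, and the distributions largely overlap.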

How the data were processed

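Per the file headers, the authors deposited FPKM values, in 1 table for each genotype. Bowtie 0.12.2 is named in the submitters' processing notes. Nothing used here states the program behind the FPKM values, the build of the genome, the gene models behind the rows, whether strand was used, the treatment of reads that match several loci, or any scaling between the tables. Read numbers are unknown, so counting error cannot be given for any level, and with 1 library per genotype no test was run.

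Both tables list the same 43446 rows in the same order and were joined by row. Of 37 mitochondrial loci, 7 matched an annotated gene exactly once 1 was added to the start, so starts were read as counted from 0. Values of 1e-05 FPKM or less are described as listed at 0. Ratios on a log scale use a pseudocount of 1, which understates the change of low loci. Intervals over loci are exact binomial at 95%. The loci, the limits and the comparisons were chosen with earlier results of these data known. Loci are named by rule: the highest in dek35 on each chromosome, the 10 highest in all, the 3 tightest pairs within 100 kb, the 3 longest, and those next to the limits. Alternatives covered scaling, both limits, span, shared coordinates, the mean limit, the pseudocount and the neighbour minimum. The procedure was tested on simulated data. Tools were Python 3.11.15 with scipy 1.17.1, pandas 2.3.3, numpy 2.4.6 and, for plots, matplotlib 3.10.9.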

Additional observations from a re-analysis of the deposited data

Results flagged for a closer look

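Rows that the rule leaves out, which were not used above, also held loci on in dek35 and near silent in wild type. First come 2440 rows on chromosomes 1 to 10 that span under 500 bp and have coordinates of their own. Of these, 182 (7.46%) had at least 5 FPKM in dek35 and under 1 FPKM in wild type. The limits were met the other way round by 112 (4.59%). Both shares are above those of eligible loci, 1.22% and 0.228%, so short rows passed more often in either direction. Of the 182, 167 were listed at 0 in wild type. Among 9289 rows on these chromosomes that share their coordinates with another row, 187 (2.01%) met the limits and 46 (0.495%) met them the other way round. Of the 187, 90 were listed at 0 in wild type. On scaffolds and organelle genomes 6 of 159 rows (3.77%) met the limits and 0 the other way round.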

How the results depend on the processing

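No paired analysis was possible because dek35 and wild type have 1 library each, so no replicate could be left out either. Across 12 alternatives 77 values were recomputed and 48 moved (counts by over 1.5 times, shares and medians to outside their 95% binomial interval). These intervals are over loci, which are not independent replicates, and the alternatives reuse the same libraries. Whether a value moved is thus a description and no test. Only the neighbour median could change sign, since the other results cannot be negative, and it did so under 0 of the alternatives. The removal of loci with a listed 0 was chosen after the data were seen and moved none of its 3 values. Its counts, 343 loci and 54 exchanged, were set in advance by the number of listed zeros. Only its neighbour median, 0.80 (log2), was free to move. By median-of-ratios, by upper quartile and by totals without the 50 highest loci, in that order, scaling gave 140, 141 and 144 loci on in dek35 and near silent in wild type, 112, 109 and 106 of the exchanged rule, shares of 0.895%, 0.901% and 0.921% on in dek35 among those near silent in wild type, 13, 13 and 13 listed at 0 in wild type, median spans of 2018.5, 2030 and 2050.5 bp, 2, 2 and 2 with another within 100 kb, and neighbour medians of 0.21, 0.22 and 0.25 (log2). One factor on every dek35 value causes these moves. A limit of 0.5 FPKM for near silent gave 167 loci and 46 exchanged, a share of 1.28%, a median span of 2051 bp and 6 within 100 kb. A limit of 10 FPKM for on gave 104 and 27, a share of 0.665%, a median of 14.5 FPKM in dek35, 12 listed at 0, a median span of 1907.5 bp, 0 within 100 kb and a neighbour median of 0.92. A span of at least 200 bp gave 108 exchanged loci, 84 listed at 0 and a median span of 1964 bp. A span of at least 1000 bp gave 41 exchanged loci, a share of 2.73%, 21 listed at 0 and 18 within 100 kb. With rows that share coordinates there were 113 exchanged loci, a share of 2.83%, 113 listed at 0, a median span of 2765.5 bp and 93 within 100 kb. The neighbour median was 1.03 with a pseudocount of 0.1 and 0.34 without a minimum level. Without the limit on the mean no value moved. Unknown depth limits all levels under 1 FPKM.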

Other observations

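Of loci of at least 500 bp with coordinates of their own, 1 was kept out of the set only by the limit on the mean. It lies on chromosome 6, 147253085 to 147254465, spans 1381 bp, and had 210 FPKM in dek35 and 0.109 FPKM in wild type, a higher level in dek35 than any of the 375 loci. Without that limit 3 loci joined the exchanged rule, which then held 73.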
